A study of Mus musculus with 12 samples.

Results

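A set of 38 interferon-stimulated genes that belong to none of the large interferon-induced families was followed in mouse mammary epithelial cell (MEC) cultures with and without Blimp-1. The set was chosen by gene name: Mx1, Mx2, Ifi27, Ifi30, Ifi35, Ifi44, Ifi44l, Rtp4, Cmpk2, Apol9b, Lgals3bp, Lgals8, Lgals9, Tor3a, Rnf213, Znfx1, Slfn2, Slfn5, Epsti1, Trafd1, Shisa5, Tdrd7, Ogfr, Plscr1, Helz2, Psme1, Psme2, Isg20, Samd9l, Xaf1, Samhd1, Nmi, Mov10, Tmem140, Gsdmd-ps, Cd274, Ube2f and Sct. The list was drawn up with earlier results of these data known, so counts over it are descriptive. The array annotation named a probe for 36 of the 38 genes. For 31 of them at least 1 probe gave a signal above the negative control beads (a detection p below 0.05) on 3 or more of the 12 arrays, out of 10724 genes with such a probe. Where several probes of a gene were detected, the brightest stands for it.

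Primary MECs were grown as acini in Matrigel, and RNA was measured on Illumina mouse BeadChips on the third and the fourth day of culture (D3 and D4), with 3 arrays for each genotype and day. Wild type cells came from pregnant C57BL/6 females. Blimp-1 cKO cells came from pregnant females of the Prdm1 BEH/CA;ROSA26:CreERT2 line, and the arrays are labelled Prdm1 null. Cultures of both genotypes received 4-hydroxytamoxifen on D0, which activates the ubiquitously expressed CreERT2 in the cKO cells. No Cre is mentioned for the wild type donors, and so an effect of Blimp-1 loss cannot be told apart from one of active Cre or of the donor line. Whether the 3 samples in each group were taken from different animals is not stated, and p-values therefore measure only how far these samples spread.

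Cells that sense type I or type III interferon signal through Janus kinases to a transcription factor complex that holds STAT2 and IRF9 and binds the interferon-stimulated response element (ISRE) in the promoters of responsive genes. Type II interferon acts through the gamma-activated sequence (GAS). Many of the induced proteins block single steps of viral replication, and others tune the response or alter antigen processing and cell surface signals. Blimp-1, encoded by Prdm1, is a transcriptional repressor that marks luminal progenitors in the mammary gland and recognises DNA letters that overlap those of the ISRE.

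Most of the measured genes were higher in Blimp-1 cKO cultures on both days. At D3, 20 of 31 rose by at least 1.5-fold with an adjusted p of at most 0.05 (limma, adjusted over all 19972 tested probes), 0 fell and 11 were not called. The rises ran from 1.64-fold to 6.90-fold. Over all genes, 1.94% were called higher and 0.55% lower at D3. At D4, 18 of 31 were called higher and 0 lower, with rises from 1.67-fold to 4.13-fold, against 2.79% of all genes higher and 1.45% lower. The median difference between cKO and wild type over the 31 genes was 1.24 on the log2 scale at D3 and 1.08 at D4, and that over all genes was -0.02 on each day. The D3 median was also 1.24 with Mx1 and Rnf213, whose annotated probes were not detected in wild type at D3, set to their lower bounds. A sum of RNA from a whole culture does not tell more RNA per cell from more cells that express a gene.

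**Figure D1:**
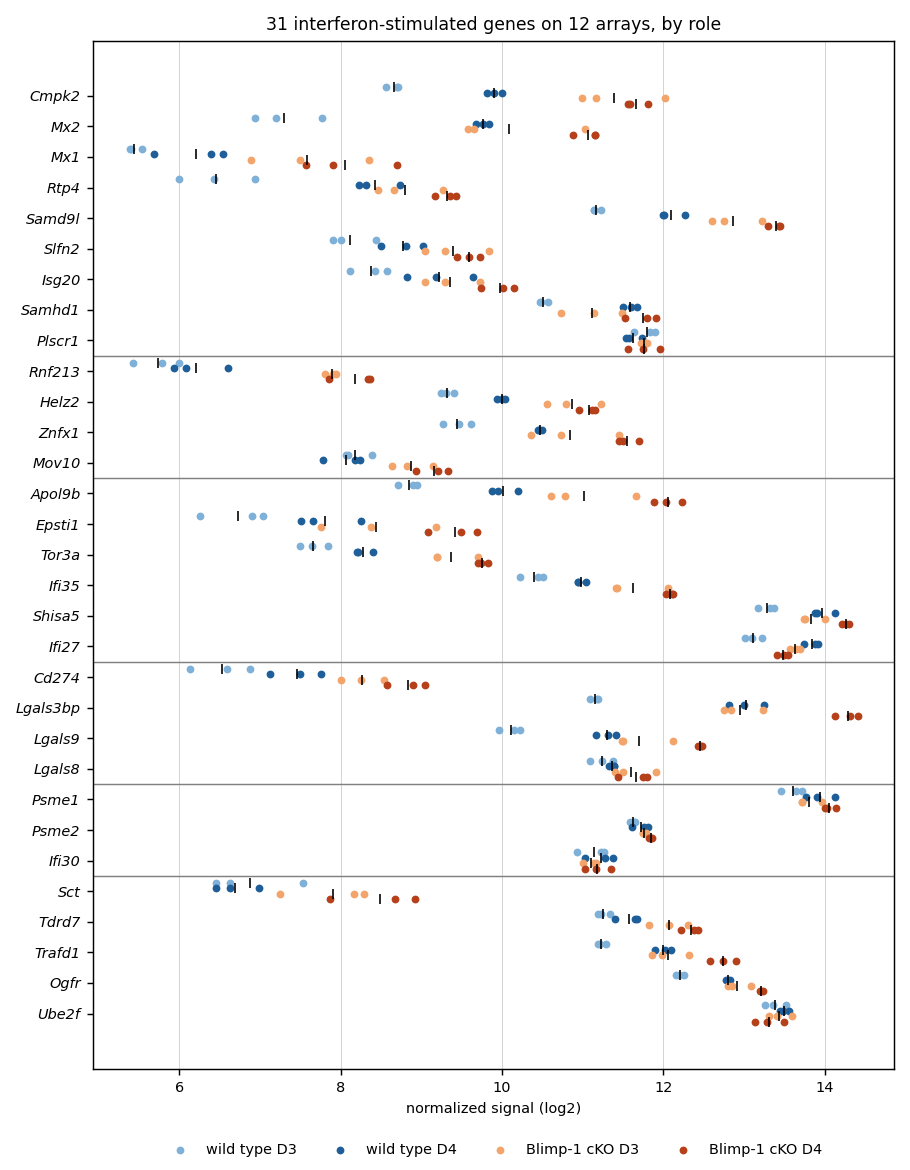
Normalized log2 signal (x axis) of 31 interferon-stimulated genes, grouped by role from top to bottom, with 1 point for each of 12 arrays, coloured by genotype and day, and a black tick at each group mean of 3 arrays. The cKO D4 mean is the highest of the 4 group means for 27 genes and the wild type D3 mean the lowest for 26; signals are comparable between groups for 1 gene, not between genes.

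All 3 cKO arrays lay above all 3 wild type arrays for 26 of 31 genes at D3 and for 25 at D4, where 9.51% and 11.6% of all genes did so. Altogether 16 of the 31 genes were called higher on both days, as were 1.49% of all genes. Rtp4, Slfn2, Ogfr and Isg20 were called at D3 only, Mov10 and Sct at D4 only, with several of these at the threshold, and 9 genes on neither day. The annotated probes of Mx1 and Rnf213 were detected on fewer than 3 of the 6 wild type arrays. They passed the filter through the cKO arrays, so they had to differ. Without them 18 of 29 were called at D3 and 16 of 29 at D4, with medians of 1.03 and 0.89.

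The cKO arrays at D3 were not alike. Replicate 2 had the highest signal of the 3 for 28 of 31 genes. Its median over the genes lay 1.66 above the wild type mean of the day, and the medians of replicates 1 and 3 lay 1.03 and 0.92 above it. Without replicate 2, 18 genes were called at D3 and the median was 1.03. At D4 the corresponding medians of the 3 cKO arrays were 0.93, 1.12 and 1.00. Each D4 pair of wild type and cKO arrays with the same number shared a BeadChip, and the median difference within the 3 BeadChips was 0.96, 1.02 and 1.06. Of the 31 genes, 28 were higher in cKO within every BeadChip, where 18.9% of all genes were. Fitted to only the D4 arrays, a model that took the BeadChip as a block called 15 of 31, without Mov10 (adjusted p = 0.0773), Trafd1 (adjusted p = 0.108) and Tdrd7 (adjusted p = 0.0601). The share of all genes called was not computed for that fit.

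**Figure D2:**
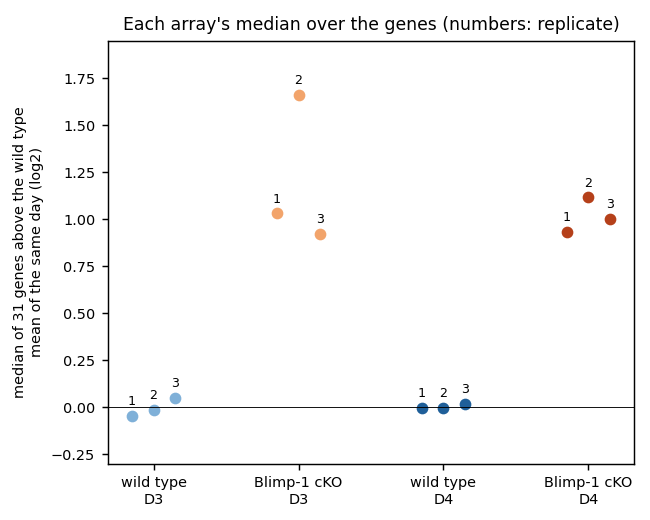
Median over 31 genes of each array's log2 signal minus the wild type mean of the same day (y axis), with 1 point for each array and its replicate number above it. Wild type arrays lie between -0.05 and 0.05, since each gene is set against their own mean. The cKO arrays lie between 0.92 and 1.66, with cKO D3 replicate 2 at the top.

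Among the antiviral effectors, 7 of 9 were called higher at D3 and 4 of 9 at D4, which is 6 of 8 and 3 of 8 without Mx1. Cmpk2, a mitochondrial nucleotide kinase, had log2 signals of 8.70, 8.56 and 8.70 on the wild type D3 arrays and 10.99, 12.02 and 11.17 on the cKO D3 arrays. At D4 it stood at 9.90, 9.81 and 9.9998 in wild type against 11.57, 11.59 and 11.81 in cKO. The genotypes did not overlap on either day. The fold was 6.66 at D3 (log2 2.74, SE 0.21, adjusted p = 2.92e-05) and 3.37 at D4 (log2 1.75, SE 0.21, adjusted p = 0.000733).

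Mx1 and Mx2 belong to a gene family of dynamin-like GTPases. Only their RNA was measured, and whether the alleles of these mice give working antiviral protein was not tested. Mx2 measured 6.93, 7.20 and 7.77 in wild type D3, 9.58, 11.03 and 9.65 in cKO D3, 9.68, 9.76 and 9.83 in wild type D4, and 10.88, 11.16 and 11.15 in cKO D4. Its wild type D4 arrays thus reached the levels of 2 of the cKO D3 arrays, and the genotype difference was 2.79 at D3 (SE 0.33, adjusted p = 0.000632) and 1.31 at D4 (SE 0.33, adjusted p = 0.0479). The D4 call of Mx2 stands at the threshold, with adjusted p from 0.00269 to 0.125 over the alternative settings and leave-one-out fits. The Mx1 probe was detected on no wild type D3 array, with signals of 5.38, 5.53 and 5.40 there against 6.89, 8.35 and 7.50 in cKO. That is a difference of at least 2.53-fold (adjusted p = 0.00768). At D4 it was detected on 2 of 3 wild type arrays, at 5.69, 6.54 and 6.39, and measured 7.57, 7.90 and 8.70 in cKO (3.61-fold, adjusted p = 0.0145). The signals lie near background, and with no background correction the log2 difference of Mx1 was 0.83 at D3 and 0.81 at D4, still called.

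Rtp4, a Golgi-associated chaperone of receptors that also binds viral RNA, measured 6.94, 5.996 and 6.43 in wild type D3 and 8.66, 9.27 and 8.47 in cKO D3 (log2 difference 2.34, SE 0.25, adjusted p = 0.000285). At D4 its wild type arrays read 8.73, 8.23 and 8.31 and its cKO arrays 9.36, 9.17 and 9.43. The D4 difference of 0.89 (SE 0.25) missed the threshold at an adjusted p of 0.0702, although the arrays did not overlap, and was called in 5 of the 25 alternative fits. Samd9l, a restriction factor for poxviruses, had log2 differences of 1.69 at D3 and 1.30 at D4, with adjusted p of 6.33e-05 and 0.000511. Slfn2, a Schlafen protein known for its part in T cell quiescence, was 1.28 higher at D3 (adjusted p = 0.00649) and measured 0.81 at D4 (adjusted p = 0.0553), a difference that was called in 8 of the 25 alternative fits. The exonuclease Isg20 was 0.98 higher at D3, where its adjusted p of 0.0448 rose as far as 0.175 in other settings.

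Plscr1 and Samhd1 were the antiviral effectors called on neither day. Plscr1, a phospholipid scramblase that restricts viral entry, differed by -0.04 at D3 and 0.14 at D4, with overlapping arrays on both days. Samhd1, which hydrolyses deoxynucleotides, measured 10.47, 10.57 and 10.49 in wild type D3 and 10.73, 11.49 and 11.14 in cKO D3, a difference of 0.61 (adjusted p = 0.109). At D4 it measured 11.50, 11.60 and 11.67 in wild type against 11.53, 11.80 and 11.91 in cKO, and the arrays overlapped (difference 0.16, adjusted p = 0.69).

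The helicases and the giant ATPase were called in 3 of 4 cases at D3 and in 4 of 4 at D4, which is 2 of 3 and 3 of 3 without Rnf213. The annotated probe of Rnf213, an AAA ATPase and ubiquitin ligase of unusual size, was detected on none of the wild type D3 arrays and on 1 wild type D4 array. Its signals were 5.99, 5.42 and 5.78 in wild type D3 and 7.81, 7.95 and 7.90 in cKO D3, at least 3.13-fold apart (adjusted p = 9.6e-05). At D4 they were 5.94, 6.60 and 6.08 against 7.85, 8.37 and 8.33, a fold of 3.93 (adjusted p = 0.000268) that rests on 1 detected wild type array. With no background correction the log2 difference of this probe was 0.85 at D3 and 0.86 at D4, both called. A second probe, named for Rnf213 only in the study's list of probes changed at D4, was detected on all 12 arrays. It differed by 1.46 at D3 (adjusted p = 0.000632) and by 1.14 at D4, where it had to differ. Helz2, a helicase that coactivates nuclear receptors, was higher by 1.55 at D3 and 1.08 at D4, and Znfx1, a sensor of double-stranded RNA, by 1.40 and 1.08.

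Mov10, an RNA helicase that restrains retroelements, was called at D4 only. The brightest of its 3 probes measured 8.06, 8.09 and 8.39 in wild type D3, 8.82, 9.15 and 8.63 in cKO D3, 8.23, 8.18 and 7.78 in wild type D4 and 8.94, 9.20 and 9.33 in cKO D4. The D3 difference of 0.68 (SE 0.17) had an adjusted p of 0.0736 and was not called, and the D4 difference of 1.09 was called at 0.00389. A second probe gave the same calls, and the third was not called on either day (0.58 at D3, and 0.71 at D4 with an adjusted p of 0.0834).

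**Figure D3:**
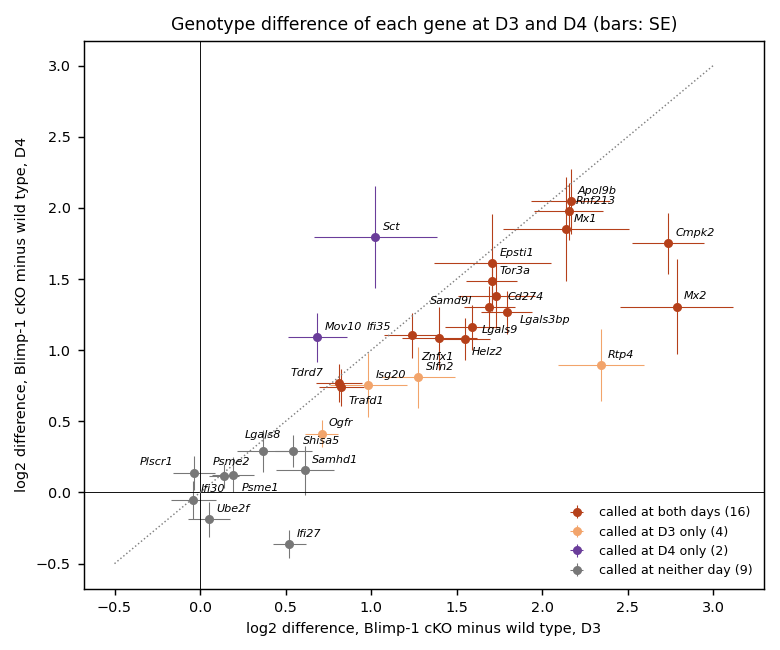
Log2 difference between Blimp-1 cKO and wild type at D3 (x axis) and at D4 (y axis) for 31 genes, with bars of 1 SE and colours for the days on which a gene was called; the dotted line marks equal differences. Of the 31 genes 28 lie below the line, Sct, Mov10 and Plscr1 lie above it, and Ifi27 is positive at D3 and negative at D4. The D3 values include cKO D3 replicate 2, the highest of its group for 28 genes. Those of Mx1 and Rnf213 are fitted against undetected wild type signals.

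Of the small interferon-induced proteins, 4 of 6 were called on both days and no further one on a single day. Apol9b, a cytosolic apolipoprotein L, measured 8.90, 8.71 and 8.95 in wild type D3, 10.78, 11.66 and 10.61 in cKO D3, 9.95, 10.20 and 9.88 in wild type D4 and 12.04, 12.23 and 11.89 in cKO D4. It was 4.49-fold higher in cKO at D3 (adjusted p = 0.000244) and 4.13-fold at D4 (adjusted p = 0.000436). The mouse genome holds a near-identical copy, Apol9a, whose transcripts this probe may also bind. Tor3a, a torsin ATPase of the endoplasmic reticulum, measured 7.64, 7.49 and 7.84 in wild type D3, 9.19, 9.71 and 9.20 in cKO D3, 8.22, 8.20 and 8.40 in wild type D4 and 9.74, 9.70 and 9.83 in cKO D4. The groups of one day were well separated, with differences of 1.71 and 1.49 (adjusted p = 5.32e-05 and 0.000231).

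Epsti1, first described in epithelial cells grown with stroma, was the most variable of this role. It measured 6.25, 6.91 and 7.03 in wild type D3, 7.76, 9.18 and 8.37 in cKO D3, 7.51, 8.25 and 7.66 in wild type D4 and 9.08, 9.49 and 9.69 in cKO D4. The differences of 1.71 (SE 0.34, adjusted p = 0.0198) and 1.61 (SE 0.34, adjusted p = 0.0202) lost their calls in 5 and 4 of the 25 alternative fits, where the adjusted p reached 0.0804 on each day. Ifi35, which pairs with Nmi in cells, was higher by 1.24 and 1.10.

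Ifi27, a small protein of the mitochondrial membrane, moved in opposite directions. Its signals were 13.01, 13.10 and 13.23 in wild type D3 and 13.57, 13.69 and 13.64 in cKO D3, so that every cKO array was above every wild type array. At D4 they were 13.91, 13.74 and 13.88 in wild type against 13.54, 13.41 and 13.50 in cKO, with every cKO array below, which 12.9% of all genes showed at D4. The D3 difference of 0.52 (1.44-fold, SE 0.10) had an adjusted p of 0.0131 and stayed under the 1.5-fold minimum. The D4 difference of -0.36 (SE 0.10) had an adjusted p of 0.0585. The change between the days, -0.88 (SE 0.14), was the lowest adjusted p of the 31 genes for that test at 0.111 and was not called. It was called with no background correction (adjusted p = 0.0125) and with limma's trend and robust options (adjusted p = 0.00237). A second Ifi27 probe gave 0.45, -0.39 and -0.84, and within each of the 3 D4 BeadChips the main probe was lower in cKO, by -0.37, -0.33 and -0.39.

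Shisa5, an endoplasmic reticulum protein that promotes cell death, depended on the probe. The brightest of 3 probes measured 13.18, 13.37 and 13.32 in wild type D3, 13.74, 14.01 and 13.76 in cKO D3, 14.12, 13.88 and 13.90 in wild type D4 and 14.27, 14.30 and 14.21 in cKO D4. Its difference of 0.55 at D3 (1.46-fold, adjusted p = 0.0218) was under the fold minimum, and that of 0.29 at D4 had an adjusted p of 0.17. A second probe was called on both days, at 1.07 (adjusted p = 0.00755) and 1.23 (adjusted p = 0.00264). The third was called at D3 alone, at 0.73 (adjusted p = 0.0034). These probes were not placed on transcripts here.

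**Figure D4:**
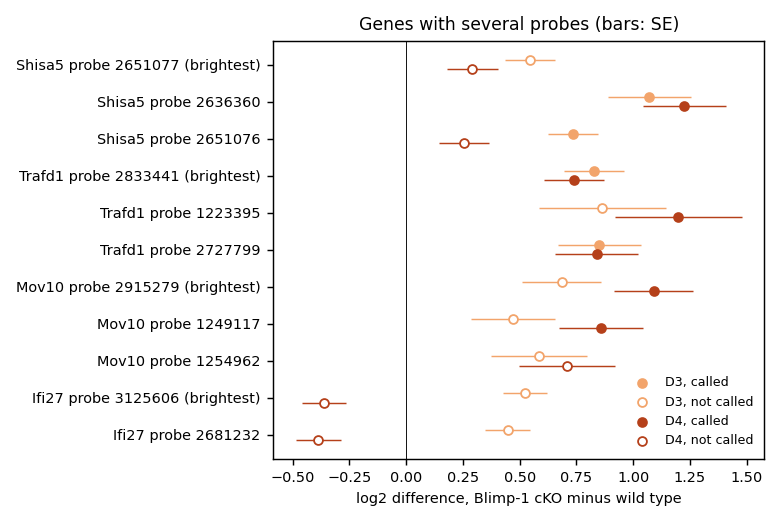
Log2 difference between Blimp-1 cKO and wild type (x axis) for each tested probe of Shisa5, Trafd1, Mov10 and Ifi27, at D3 and D4, with bars of 1 SE; filled points were called. The probes of Shisa5 range from 0.25 to 1.23 at D4, and both Ifi27 probes lie above 0 at D3 and below 0 at D4.

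Of the lectins and immune surface proteins, 3 of 4 were called on both days. Cd274, which encodes the checkpoint ligand PD-L1, measured 6.13, 6.87 and 6.59 in wild type D3, 8.01, 8.54 and 8.25 in cKO D3, 7.76, 7.12 and 7.49 in wild type D4 and 8.89, 8.57 and 9.05 in cKO D4. The fold was 3.33 at D3 (adjusted p = 0.00107) and 2.60 at D4 (adjusted p = 0.00446). Lgals3bp, a secreted glycoprotein that binds galectins, read 11.09, 11.19 and 11.17 in wild type D3, 12.75, 13.24 and 12.84 in cKO D3, 13.25, 12.99 and 12.82 in wild type D4 and 14.13, 14.31 and 14.41 in cKO D4. Its difference was 1.79 at D3 (adjusted p = 3.93e-05) and 1.27 at D4 (adjusted p = 0.000572), and the wild type D4 arrays overlapped the cKO D3 arrays.

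Lgals9, the glycan-binding galectin-9, read 9.97, 10.15 and 10.22 in wild type D3, 11.50, 12.12 and 11.49 in cKO D3, 11.41, 11.16 and 11.31 in wild type D4 and 12.48, 12.43 and 12.47 in cKO D4. It was 3.02-fold higher at D3 (adjusted p = 0.000158) and 2.24-fold at D4 (adjusted p = 0.00164). Lgals8, galectin-8, measured 0.37 at D3 and 0.29 at D4, and neither was called.

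Of the genes of antigen processing, 0 of 3 were called on either day. Psme1 and Psme2, the subunits of the interferon-inducible proteasome activator PA28, differed by 0.19 and 0.14 at D3 and by 0.12 and 0.12 at D4, with adjusted p from 0.525 to 0.655. Ifi30, a lysosomal thiol reductase used in antigen presentation, differed by -0.04 and -0.05. All 3 were detected on every array.

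In the last group, Trafd1, a feedback inhibitor of innate signalling, read 11.19, 11.21 and 11.28 in wild type D3, 11.86, 12.32 and 11.99 in cKO D3, 12.10, 12.02 and 11.89 in wild type D4 and 12.58, 12.74 and 12.90 in cKO D4. The rises of 0.83 (adjusted p = 0.00503) and 0.74 (adjusted p = 0.00821) were small and free of overlap. One of its 3 probes missed the D3 call at 0.86 (SE 0.28, adjusted p = 0.191). Tdrd7, a Tudor domain protein of RNA granules, was higher by 0.82 and 0.77. Ogfr, the opioid growth factor receptor, was higher by 0.71 at D3, and its D4 difference of 0.41 (adjusted p = 0.033) was under the fold minimum. Ube2f, a conjugating enzyme of the ubiquitin-like protein NEDD8, differed by 0.05 and -0.19.

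Sct, which encodes the gut hormone secretin, was called at D4 only. It measured 7.54, 6.46 and 6.62 in wild type D3, 8.29, 8.16 and 7.24 in cKO D3, 6.99, 6.63 and 6.45 in wild type D4 and 8.92, 8.67 and 7.86 in cKO D4. The arrays overlapped at D3 (difference 1.03, adjusted p = 0.24) and were separate at D4 (difference 1.79, SE 0.36, adjusted p = 0.0157). The D3 difference was called with the replicate number as a block (adjusted p = 0.027), and the D4 call was lost in 4 leave-one-out fits, with an adjusted p of up to 0.0686. In the RefSeq gene order Sct lies on chromosome 7 with 1 protein-coding gene between it and Irf7, a transcription factor of the interferon response.

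A genotype difference that changed from D3 to D4 was called for 0 of 31 genes by limma, as for 0% of all genes. At an unadjusted p under 0.05, 6 of the 31 and 793 of all 10724 genes changed. The signed value of cKO minus wild type was lower at D4 than at D3 for 28 of the 31, as for 50.1% of all genes, and the median of its change was -0.24. Plscr1, Mov10 and Sct were the 3 with a higher signed value at D4. The D3 values include cKO D3 replicate 2, which had the highest signal of its group for 28 of the 31. Its median lay 1.66 above the wild type mean of the day, and those of replicates 1 and 3 lay 1.03 and 0.92 above it. At D4 these medians were 0.93, 1.12 and 1.00. The count of 28 was not computed without that array, so a general narrowing from D3 to D4 is not shown.

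Most of these genes also rose with time in wild type cultures. From D3 to D4, 19 of 31 rose in wild type cultures, by 1.502-fold to 5.50-fold, and 0 fell, where 7.09% of all genes rose and 4.89% fell. The median change was 0.68 on the log2 scale, and that over all genes was -0.02. All wild type D4 arrays lay above all wild type D3 arrays for 23 of 31 genes, as for 20.2% of all genes. The largest rises were those of Mx2 (2.46, SE 0.33, adjusted p = 0.00102), Rtp4 (1.97, SE 0.25, adjusted p = 0.000883) and Lgals3bp (1.87, SE 0.15, adjusted p = 0.000174). The rise included Samhd1 (1.08, adjusted p = 0.00194), Ifi27 (0.73, adjusted p = 0.000972) and Shisa5 (0.68, adjusted p = 0.0023), whose brightest probes the genotype comparisons did not call.

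In cKO cultures 4 of 31 rose from D3 to D4, namely Lgals3bp (1.34, adjusted p = 0.00332), Trafd1 (0.68, adjusted p = 0.0184), Lgals9 (0.75, adjusted p = 0.0249) and Apol9b (1.03, adjusted p = 0.0291), and 0 fell. Of all genes 2.53% rose and 1.61% fell, and the median over the 31 genes was 0.43. These counts use the brightest probe of each gene. A dimmer Samhd1 probe rose by 1.42 in cKO (adjusted p = 0.00633) and by 1.70 in wild type (adjusted p = 0.000556). A dimmer Shisa5 probe rose by 0.93 in cKO (adjusted p = 0.0195). The cKO D4 arrays all lay above the cKO D3 arrays for 13 of 31 genes, against 13.6% of all genes. The count of called rises, 4 of 31 with all arrays, moved with cKO D3 replicate 2, without which it was 10 of 31. It was 1 of 31 without cKO D3 replicate 1 or 3 or without cKO D4 replicate 2 or 3. The cKO arrays of the same number at D3 and D4 deviated together, and with the replicate number as a block within genotype 8 of 31 rose (3.38% of all genes), the added ones being Znfx1, Epsti1, Samhd1 and Sct. With the block the wild type count stayed at 19. The changes in the 2 genotypes were not called different for any of the 31, this being the same test as for the change in the genotype difference. No source used here names the BeadChips that carried the D3 arrays, so day and BeadChip cannot be told apart.

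**Figure D5:**
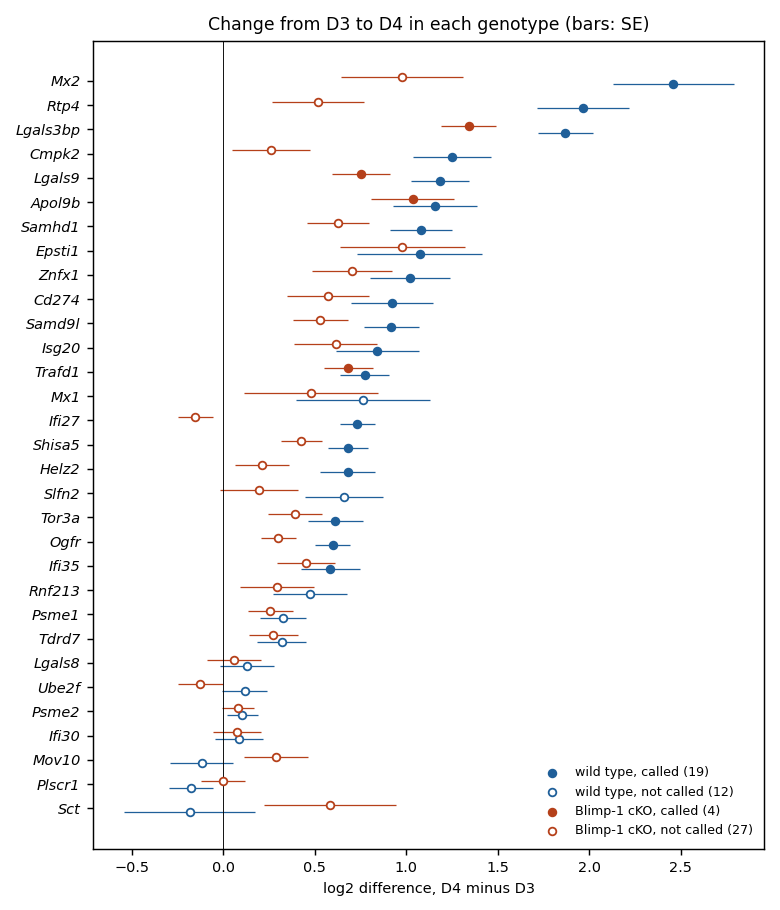
Log2 difference between D4 and D3 (x axis) in wild type and in Blimp-1 cKO cultures for 31 genes, ordered by the wild type change, with bars of 1 SE; filled points were called. There are 19 filled points for wild type and 4 for cKO, and Ifi27 has a called rise in wild type (0.73) beside a value of -0.15 in cKO.

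For 21 of the 31 genes the group means ran in one order, from wild type D3 through wild type D4 and cKO D3 to cKO D4, an order that 5.02% of all genes showed. In 15 of the 31 all wild type D4 arrays were still below all cKO D3 arrays, as for 19.9% of all genes, among them Cmpk2, Apol9b, Tor3a, Rnf213, Helz2, Samd9l, Lgals9 and Cd274. Mx2, Rtp4, Lgals3bp, Trafd1, Znfx1, Epsti1, Ogfr and Isg20 were called at D3, and on at least 1 array their wild type D4 signal was at or above a cKO D3 signal.

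The genes with no place in these counts were each looked at. Slfn5, Nmi, Ifi44l and Tmem140 had annotated probes that were detected on 0 of 12 arrays. The pair of Xaf1 probes in the annotation was detected on no array either. Gsdmd-ps matched no probe, and Ifi44 had none in the annotation. A probe that the study's own list assigns to Ifi44 was above background on 1 of 3 cKO D3 arrays, on 3 of 3 cKO D4 arrays and on none of the wild type arrays. At D4 it read 7.50, 7.82 and 7.47 in cKO and 5.43, 5.61 and 5.77 in wild type. That is at least 2.56-fold. Another such probe, for Xaf1, was detected on all 12 arrays and differed by 2.26 at D3 (adjusted p = 1.3e-05) and 1.30 at D4. That list holds probes changed at D4, so their D4 values had to differ and are given as a description.

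RefSeq promoter windows (GRCm38.p6), from 250 bases before to 50 after each annotated start, were matched for 32 of the 38 genes. Mx1, Mx2, Ifi27, Rtp4, Tor3a and Gsdmd-ps had no window. The windows of the other genes were used. They were searched on both strands for an ISRE-like pattern, GAAA repeated after a gap of any 2 or 3 bases, for the GAS-like TTCNNNGAA and for the Blimp-1-like AGNGAAAG. The ISRE-like pattern was found in 11 of 32 genes (34.4%), where 6.9% of all 27025 genes with windows hold it. Counted by window it was in 12 of 46 (26.1%) and in 5.99% of all. Of the 22 genes called on either day 18 had a window, and the pattern was present in 6 of these. It was present in 2 of 8 genes with a window that were called on neither day. TTCNNNGAA was found in 5 of 32 genes (9.55% of all genes), and AGNGAAAG in 5 of 32 (9.91% of all genes). The Blimp-1-like letters overlapped the ISRE-like ones in Ogfr and Psme1. A match is a run of letters and was not tested for binding.

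The stretches below show an ISRE-like match of each gene in capitals, for 5 genes that rose and for Psme1, which was not called. Apol9b holds a further match, 31 bases before the start, that overlaps the capitals and is not marked. Lgals9 holds a further match after the start. Apol9b has 2 windows, and its distances are to the nearer start. They are read 5′ to 3′ along the gene's strand, and TTTC is GAAA on the opposite strand.
Apol9b, chr15:77729025-77729054, plus strand, 37 bases before the start: gaggtgagacTTTCAGTTTCcatttcccag
Lgals3bp, chr11:118401957-118401986, minus strand, 17 bases before the start: tgtgttttctGAAAATCGAAActaggtgag
Lgals9, chr11:78984960-78984989, minus strand, 55 bases before the start: tgacatcagcTTTCTTTTTCtctagacact
Samd9l, chr6:3399522-3399551, minus strand, after the start: gtatcagaatcGAAACTGGAAActgaagca
Ogfr, chr2:180589427-180589456, plus strand, after the start: gcttcctcctcTTTCACTTTCctttccgcg
Psme1, chr14:55578493-55578522, plus strand, after the start: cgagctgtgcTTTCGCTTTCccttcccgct
Apol9b and Lgals3bp, called for genotype on both days and for time in both genotypes, and Psme1, called for none of these, thus each hold the pattern near the start. Cmpk2, Rnf213, Helz2 and Cd274 held neither form of it in this window.

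Of 20 genes that carry or restrain the interferon signal, 16 had a tested probe, and 5 were called higher in cKO at D3 and 4 at D4, with 0 lower. At D3 these were Stat2 (1.59) and Irf9 (0.85), which belong to the ISRE-binding complex, the transcription factor Irf7 (2.59), the ubiquitin-like modifier Isg15 (2.99) and Usp18 (3.35), the protease that removes it and dampens the receptor. At D4 Irf9 was at 0.24 (adjusted p = 0.345) and the other 4 were called. The receptor genes Ifnlr1, Il10rb, Ifnar2, Ifngr1 and Ifngr2 and the kinases Jak1, Jak2 and Tyk2 were not called on either day.

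The 12 arrays had 18087 to 18905 detected probes of 45281, and each correlated with its group at a mean r of 0.985 to 0.992. Prdm1 itself had 2 annotated probes. The brightest tested probe was above background on 1 of 3 cKO D3 arrays, 3 of 3 cKO D4 arrays and 0 wild type arrays. It was higher in cKO at D4 (1.25, adjusted p = 0.00478). Where this probe lies relative to the deleted part is unknown here, so it checks nothing about the labels. All 8 luminal markers were detected and none was called for genotype on either day. Of 10 myeloid markers, Ptprc, Adgre1, Itgam and H2-Aa were detected on 0 arrays, and 1 of 5 tested, Lyz2, was lower in cKO at D4 (-1.17, adjusted p = 0.00734). Their summed level was 11.35 to 11.996 on the log2 scale in wild type D4 and 10.77 to 11.004 in cKO D4, and it overlapped at D3. That sum mostly repeats Lyz2, whose mean was 11.13 in wild type D4 and 9.96 in cKO D4. The other tested myeloid markers were not called at D4. Csf1r and Fcer1g differed by 0.22 and 0.15, and Cd74 and Tyrobp by -0.05 and -0.48. All 6 lymphocyte markers with a probe were detected on 0 arrays. The summed basal markers were at 15.42 to 15.54 in wild type and 15.56 to 15.88 in cKO at D3, and at 15.28 to 15.51 and 15.60 to 15.80 at D4. Among them Krt5 differed by 1.61 at D3 and 1.92 at D4 (adjusted p = 0.208 and 0.0687) and Myh11 by 1.05 and 1.81 (adjusted p = 0.409 and 0.059). Acta2 differed by 0.62 and 0.63, Krt14 by -0.24 and 0.13 and Trp63 by 0.59 and -0.09. The fibroblast markers were at 11.09 to 11.25 and 11.27 to 12.04 at D3 and overlapped at D4. No basal or fibroblast marker was called for genotype. From D3 to D4 in wild type the luminal Elf5 (0.80, adjusted p = 0.00486), the basal Trp63 (0.76, adjusted p = 0.0423) and the fibroblast Pdgfra (1.17, adjusted p = 0.0438) rose. No other luminal, basal or fibroblast marker was called for that change. The basal Krt5, Krt14, Acta2 and Myh11 were lower at D4, by -0.33, -0.18, -0.10 and -0.63. Among the luminal markers Krt8, Krt18, Epcam and Csn3 were lower and Krt19, Cdh1 and Csn2 higher. The endothelial Emcn fell in wild type (-0.73, adjusted p = 0.0317), and Lyz2 fell in cKO (-0.80, adjusted p = 0.0463). The part of these cell type levels in the results above was not tested.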

How the data were processed

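The deposited intensity values are GenomeStudio signals per probe, which the authors exported without normalization or background subtraction. Each deposited detection p-value sets a probe against the negative controls of the same array. An alternative used the authors' processed intensity values, after rank-invariant normalization and background subtraction.

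Signals were processed with neqc, a limma function (limma 3.58.1, R 4.3.3; background correction from the detection p-values, offset 16, quantile normalization, log2). Of 45281 probes, 19972 reached a detection p below 0.05 on 3 or more of 12 arrays and were tested. The annotation gives 34885 probes 1 symbol, 18 several and 10378 none, and the brightest tested probe stands for a gene. One limma model with a mean for each of 4 groups gave genotype on each day, the difference of these effects and the change from D3 to D4 within each genotype. P-values were adjusted by the Benjamini-Hochberg method over all tested probes. A call needed an adjusted p of 0.05 or less and 1.5-fold, and for the difference between the days the adjusted p alone. A probe detected on no array of a group has a lower bound in place of a fold, computed against the lowest detected signal of those arrays. The number of arrays limits the precision.

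The genes and lists were chosen with earlier results of these data known. Given array by array were the 8 genes with the largest mean difference among those called on both days, up to 4 with the lowest adjusted p for each change between days, those whose probes disagree and 3 uncalled genes with the largest difference. Sct and Ifi44 were given array by array after their values were seen. The residuals of same-numbered D3 and D4 arrays correlated at 0.31, 0.35 and 0.36 in cKO and at 0.18, 0.13 and 0.081 in wild type, so a block within genotype was added after seeing the data. At D4 the study's probe table ties the replicate number to the BeadChip, with 598 of 598 probe values equal on each array within 0.1%. The alternatives covered normalization, offset, filter, model options, blocks, choice of probe, fold minimum, the methods' t-test and leaving out each array.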

Additional observations from a re-analysis of the deposited data

How the results depend on the processing

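The counts of genes called lower were 0 in every setting run. Of the 38 genotype calls of a gene on a day, 24 held in every setting run and 0 reversed. Of the 24 uncalled values, 9 gained a call in some setting, among them Slfn2 and Rtp4 at D4. With no background correction the medians were 0.81 at D3, 0.73 at D4 and 0.52 for the wild type change from D3 to D4. In that setting 7 genes rose in cKO from D3 to D4, and 1 gene differed between the days, as did 4 of all 10724 genes. With trend and robust options 1 gene, Ifi27 again, differed between the days, as did 6 of all genes. With no filter the D4 median was 0.79, with the authors' processed values the median wild type change was 0.75, and without Mx1 and Rnf213 the D4 median was 0.89. The count of genes that rose in cKO from D3 to D4 was 1 with median scaling, 1 with only the arrays of one genotype and 8 with a block within genotype. The methods' t-test is the unpaired test that the study used for other measurements; its arrays were tested with Illumina's own error model, which was not run here. Unadjusted with the 1.5-fold minimum, it called 22 genes higher at D3 and 21 at D4; after adjustment it called 0 at D3, 9 at D4 and 0 for the cKO change, where it called 15 for the wild type change. The cause was not tested. For the t-test the share of all genes called was not computed, so its counts are not set against a background. The same holds for the counts of rises in the other settings, except the block within genotype. Leaving out 1 array gave 18 to 22 genes at D3, 14 to 19 at D4, 15 to 20 for the wild type change and 1 to 10 for the cKO change, with a D4 median of 0.97 to 1.08 and a cKO change from 0.31 to 0.58. A replicate block in the fit of all arrays gave 22 genes at D3 and 19 at D4, and the same block on the arrays of 1 day 15 and 15. Between the genotypes, residuals of equally numbered arrays correlated at 0.14, 0.091 and 0.098 at D3 and at -0.051, 0.034 and -0.079 at D4. With 3 arrays a group, and with signals near background for Mx1, Ifi44 and the annotated Rnf213 probe, small differences of dim genes were not measurable.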
